A study of Homo sapiens with 12 samples.

Results

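Insulin-like growth factor 2 (IGF2) and 9 genes of its axis were followed in SBC5, an established cell line from a human small cell lung cancer, labelled as wild type. The 10 genes were listed by symbol out of 60605 genes in the table, and IGF2 was chosen by its measured level, which was higher after radiation and higher again when olaparib preceded it. Its values in the irradiated groups are therefore given as a description without a test. The other 9 were listed for their place in the axis: the imprinted neighbour H19, the receptors IGF1R, IGF2R and INSR, the binding proteins IGFBP2 and IGFBP3, and the IGF2 mRNA-binding proteins IGF2BP1, IGF2BP2 and IGF2BP3. RNA was sequenced in 4 groups of 3 libraries, all collected 3 days after treatment. The combination group received 1 µM olaparib, which blocks PARP enzymes of DNA repair, and 2 hours later 4 Gy of gamma rays. The radiation group received the solvent DMSO and 4 Gy, the olaparib group 1 µM olaparib without radiation, and the vehicle group DMSO alone.

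IGF2 is a secreted growth factor of fetal tissues that many tumours express again. It signals through the tyrosine kinase receptor IGF1R and through a short form of the insulin receptor, which feed the PI3K-AKT and MAP kinase branches. IGF2R binds the same ligand without a kinase and carries it to the lysosome, and secreted IGFBP proteins hold it in the extracellular fluid. The gene is imprinted and active from the paternal copy, whereas its neighbour H19, a long noncoding RNA, is active from the maternal copy.

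Totals ran from 14.3e6 to 38.8e6 estimated counts per library. In 3 libraries, olaparib 2, olaparib 3 and radiation 3, many otherwise silent genes carried counts: the summed level of 404 olfactory receptor genes was 920 to 2098 CPM (counts scaled to a fixed library total), against 355 to 501 in the other 9. These 3 were set apart, and levels are given as CPM scaled by edgeR's TMM factors, with the 3 on the same scale. The fit used the remaining 9, of which 3 were combination, 2 radiation, 1 olaparib and 3 vehicle. In these, the olfactory receptor sum was 461 to 501 CPM in the combination, 357 and 487 in radiation, 384 in olaparib and 355 to 433 in vehicle. Totals were 19.4e6 to 20.6e6 in the combination, 30e6 and 26.9e6 in radiation, 38.8e6 in olaparib and 27e6 to 34.1e6 in vehicle. The part of these differences in background and depth in the results was not tested. Among small cell lung cancer markers, YAP1 (83.9 to 123 CPM in the 9), UCHL1 and SYP were present, while INSM1 reached 0.285 CPM at most. The 10 markers listed summed to 150 to 174 CPM in the combination and 198 to 212 CPM in vehicle, and YAP1 fell by 0.41 in this comparison (edgeR adjusted p = 0.000147), a call lost with library size only (0.0745). Leukocyte markers summed to at most 4.08 CPM in the 9 libraries, against 9.86 to 20.1 CPM in the 3 set apart. Fibroblast markers summed to 83.6 to 89.2 CPM in the combination libraries and 113 to 117 CPM in vehicle, most of it PDGFRA (63.7 to 97.8 CPM in the 9). Their part in the results below was not tested. In the 3 libraries set apart IGF1R, IGF2R, INSR, IGFBP2 and the 3 IGF2BP genes lay below all 9 others and IGFBP3 above them. IGF2 lay within the range of the 9 in all 3, and H19 in olaparib 3 and radiation 3 but below it in olaparib 2 (1.91 CPM).

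The promoter windows of H19 and IGF1R are shown because these members differed between irradiated and vehicle cells, H19 upward without a call and IGF1R downward with one. Each window is a RefSeq record on GRCh38.p14, running from 250 bases before the gene's start to 50 after it, and the capitals mark GGGCGG or its complement, the core of a GC box bound by the Sp1 family. The H19 window lies at chr11:2001217-2001516 on the minus strand and the IGF1R window at chr15:98648289-98648588 on the plus strand.
H19: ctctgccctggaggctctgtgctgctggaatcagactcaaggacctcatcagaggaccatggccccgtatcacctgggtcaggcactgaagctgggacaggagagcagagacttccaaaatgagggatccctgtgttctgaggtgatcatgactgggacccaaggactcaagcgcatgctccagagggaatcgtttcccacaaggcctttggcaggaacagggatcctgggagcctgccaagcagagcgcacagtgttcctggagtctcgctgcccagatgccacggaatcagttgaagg
IGF1R: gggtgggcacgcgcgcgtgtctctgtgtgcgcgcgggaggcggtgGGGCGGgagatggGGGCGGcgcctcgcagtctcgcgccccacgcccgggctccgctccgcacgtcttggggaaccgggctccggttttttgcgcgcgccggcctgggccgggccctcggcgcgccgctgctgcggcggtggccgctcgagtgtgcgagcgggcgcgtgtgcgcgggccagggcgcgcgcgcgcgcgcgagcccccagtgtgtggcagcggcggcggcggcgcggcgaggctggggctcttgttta
The IGF1R window held 2 copies of GGGCGG, searched on both strands, and 79.7% of its bases were G or C. In the H19 window there was no copy and a GC share of 57.7%. Of 35116 RefSeq windows of this length, 45% held at least 1 copy, and the median GC share was 58.7%. Windows were found for 8 of the 10 members, and IGF2 and IGF2BP1 are named only.

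IGF2 stood at 38.6, 35.3 and 33.3 CPM in the combination libraries and at 23.4 and 26.7 CPM in the radiation libraries. It was 8.85 CPM in the olaparib library and 13.6, 12.1 and 12.1 CPM in the vehicle libraries. Every irradiated library lay above every unirradiated one, and every combination library above both radiation libraries. The means were 35.7 ± 2.64 CPM (SD, n = 3) in the combination, 25 ± 2.34 (SD, n = 2) in radiation and 12.6 ± 0.843 (SD, n = 3) in vehicle. On the log2 scale the combination exceeded vehicle by 1.51 (SE 0.133), a 2.84-fold difference, and radiation exceeded vehicle by 0.99 (SE 0.144), a 1.99-fold difference. The combination exceeded radiation by 0.51 (SE 0.145). In a bulk sample, more cells that express a gene and more of its RNA per cell cannot be told apart.

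Olaparib without radiation did not enter the choice of IGF2 and was tested. The olaparib library was below all 3 vehicle libraries, with a log2 change of -0.51 (SE 0.193, edgeR adjusted p = 1, 1 library against 3). It is assumed to vary like the other groups. The 2 olaparib libraries set apart had 9.26 and 13.2 CPM, on either side of the lowest vehicle library, and with all 12 libraries the change was -0.26 (SE 0.191, adjusted p = 0.339). Radiation 3, also set apart, had 26.3 CPM, between the other radiation libraries. With all 12 libraries the differences of IGF2 were 1.51 for combination over vehicle, 1.03 for radiation over vehicle and 0.48 for combination over radiation.

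H19 is processed to the microRNA miR-675 and is used as a readout of the maternal copy of the locus. Its levels were 3.65, 6.27 and 5.32 CPM in the combination and 4.33 and 3.96 CPM in radiation. They were 2.81 CPM in olaparib and 3.29, 2.91 and 2.69 CPM in vehicle. All 5 irradiated libraries were above all 4 unirradiated ones, but the combination and radiation ranges overlapped. The change was 0.78 (SE 0.3, edgeR adjusted p = 0.145) in combination versus vehicle and 0.49 (SE 0.331, adjusted p = 0.695) in radiation versus vehicle, and neither was called. With library size only as the scaling, combination versus vehicle passed (log2 0.98, adjusted p = 0.0267). Counts behind these levels were 68 to 140 in irradiated libraries and 51 to 107 in unirradiated ones, over all 12.

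The H19 count per 100 IGF2 counts, a ratio within each library that no scaling touches, was 9.47, 17.8 and 16 in the combination and 18.5 and 14.8 in radiation. It was 31.8 in the olaparib library and 24.3, 24.1 and 22.2 in vehicle. The ratio was lower in every irradiated library than in every unirradiated one, since the IGF2 count differed more between these groups than the H19 count. IGF2 was chosen for its rise after radiation, so the ratio is a description and no separate check of it.

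**Figure D1:**
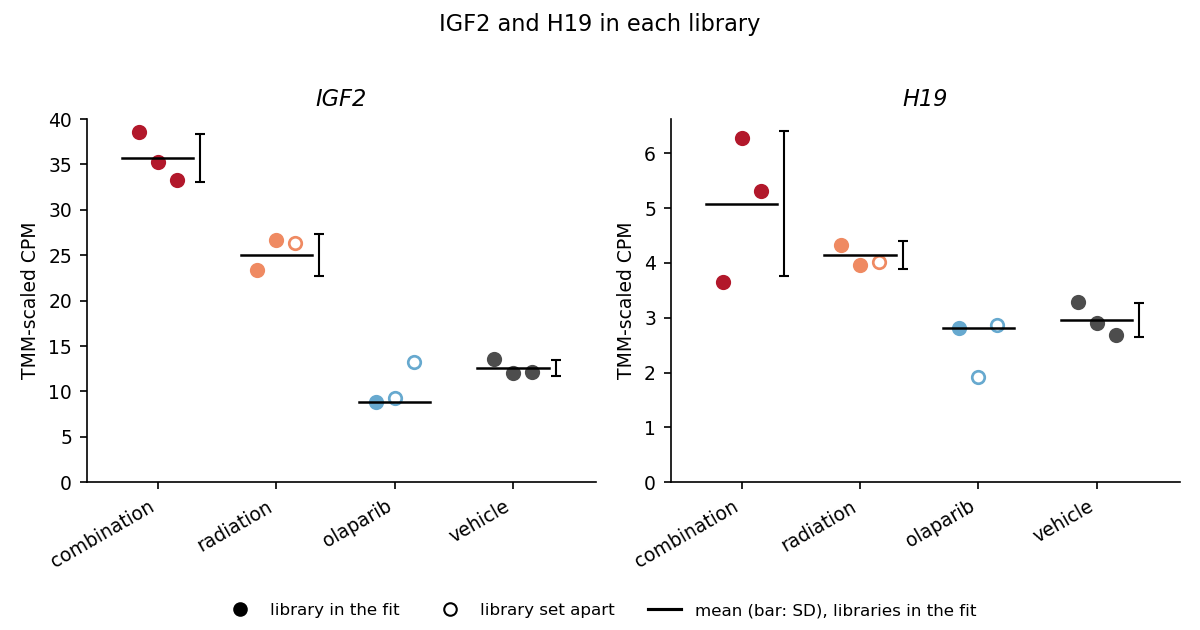
Levels of IGF2 (left) and H19 (right) in TMM-scaled CPM in each of the 12 libraries, by group. Filled points are the 9 libraries of the fit, open points the 3 set apart, lines the means and bars the SD. IGF2 lay between 33.3 and 38.6 CPM in the combination and between 12.1 and 13.6 CPM in vehicle, and H19 between 3.65 and 6.27 CPM in the combination and between 2.69 and 3.29 CPM in vehicle.

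The other ligands of the axis were near or at 0. IGF1 averaged 0.172 CPM in the combination and 0.0783 CPM in vehicle. INS had 0 counts in all 9 libraries, a result that leaves room for levels of 0.0788 to 0.146 CPM, depending on the library. The microRNA gene MIR675, which lies within H19, also had 0 counts, in all 12 libraries. How reads were split between MIR675 and H19 is not shown, so this does not give the level of miR-675. INS-IGF2, a readthrough transcript that contains IGF2 sequence, had 0 estimated counts in all 12 libraries. The antisense gene IGF2-AS had 0 counts in 7 of the 9 libraries and 8 in each of the others, combination 3 and vehicle 3.

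IGF1R, the signalling receptor for IGF1 and IGF2, was lower after radiation with or without olaparib. Its levels were 224, 203 and 195 CPM in the combination and 207 and 216 CPM in radiation. They were 255 CPM in the olaparib library and 274, 294 and 301 CPM in vehicle. No irradiated library reached the lowest unirradiated one. The receptor fell by 0.48 on the log2 scale in combination versus vehicle (SE 0.07, edgeR adjusted p = 5.02e-07, 0.717-fold) and by 0.45 in radiation versus vehicle (SE 0.0789, adjusted p = 0.000109, 0.73-fold). The combination and radiation ranges overlapped (log2 -0.026, SE 0.0781, adjusted p = 0.966). Both calls held with library size only (-0.28 and -0.34, adjusted p = 0.00245 and 0.00307) and without any 1 of the 9 libraries (adjusted p of at most 0.000113 and 0.014). With all 12 libraries the changes were -0.48 and -0.54 and neither passed (adjusted p = 1 and 0.934).

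The balance of ligand to receptor transcript was read within each library, as a description, since IGF2 was chosen by its level. Per 100 IGF1R counts, libraries held 17.2, 17.4 and 17.1 IGF2 counts in the combination and 11.3 and 12.4 in radiation. The ratio was 3.48 in the olaparib library and 4.95, 4.1 and 4.03 in vehicle. The combination libraries differed by less than 1 count per 100 among themselves and lay above both radiation libraries. Among the libraries set apart the ratio was 15.6 in radiation 3, 9.2 in olaparib 2 and 10.5 in olaparib 3, so those from olaparib alone were above all vehicle libraries on this measure. Per 100 IGF2R counts, IGF1R counts were 98.6 to 108 in the combination, 103 to 113 in radiation, 115 in olaparib 1 and 132 to 140 in vehicle, so every other library of the 9 lay below vehicle. In olaparib 2 and olaparib 3 this ratio was 85.7 and 105.

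INSR, the insulin receptor, had 38.1, 41.9 and 39.5 CPM in the combination and 44.3 and 46.7 CPM in radiation. It had 46.3 CPM in the olaparib library and 49.5, 46.6 and 48.8 CPM in vehicle. The combination libraries were the lowest of the 9, with a log2 change of -0.28 against vehicle (SE 0.0977, edgeR adjusted p = 0.0946). DESeq2 put it past the threshold (adjusted p = 0.0445), limma-voom did not (0.169), and with library size only the change was -0.076 (0.776). IGF2R, the scavenging receptor, had 207, 197 and 198 CPM in the combination and 207, 223 and 214 CPM in vehicle, with a change of -0.097 (SE 0.0708, adjusted p = 0.631) and levels of 184 to 223 CPM across the 9 libraries. The sign for IGF2R turned with library size only (0.10, adjusted p = 0.455).

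**Figure D2:**
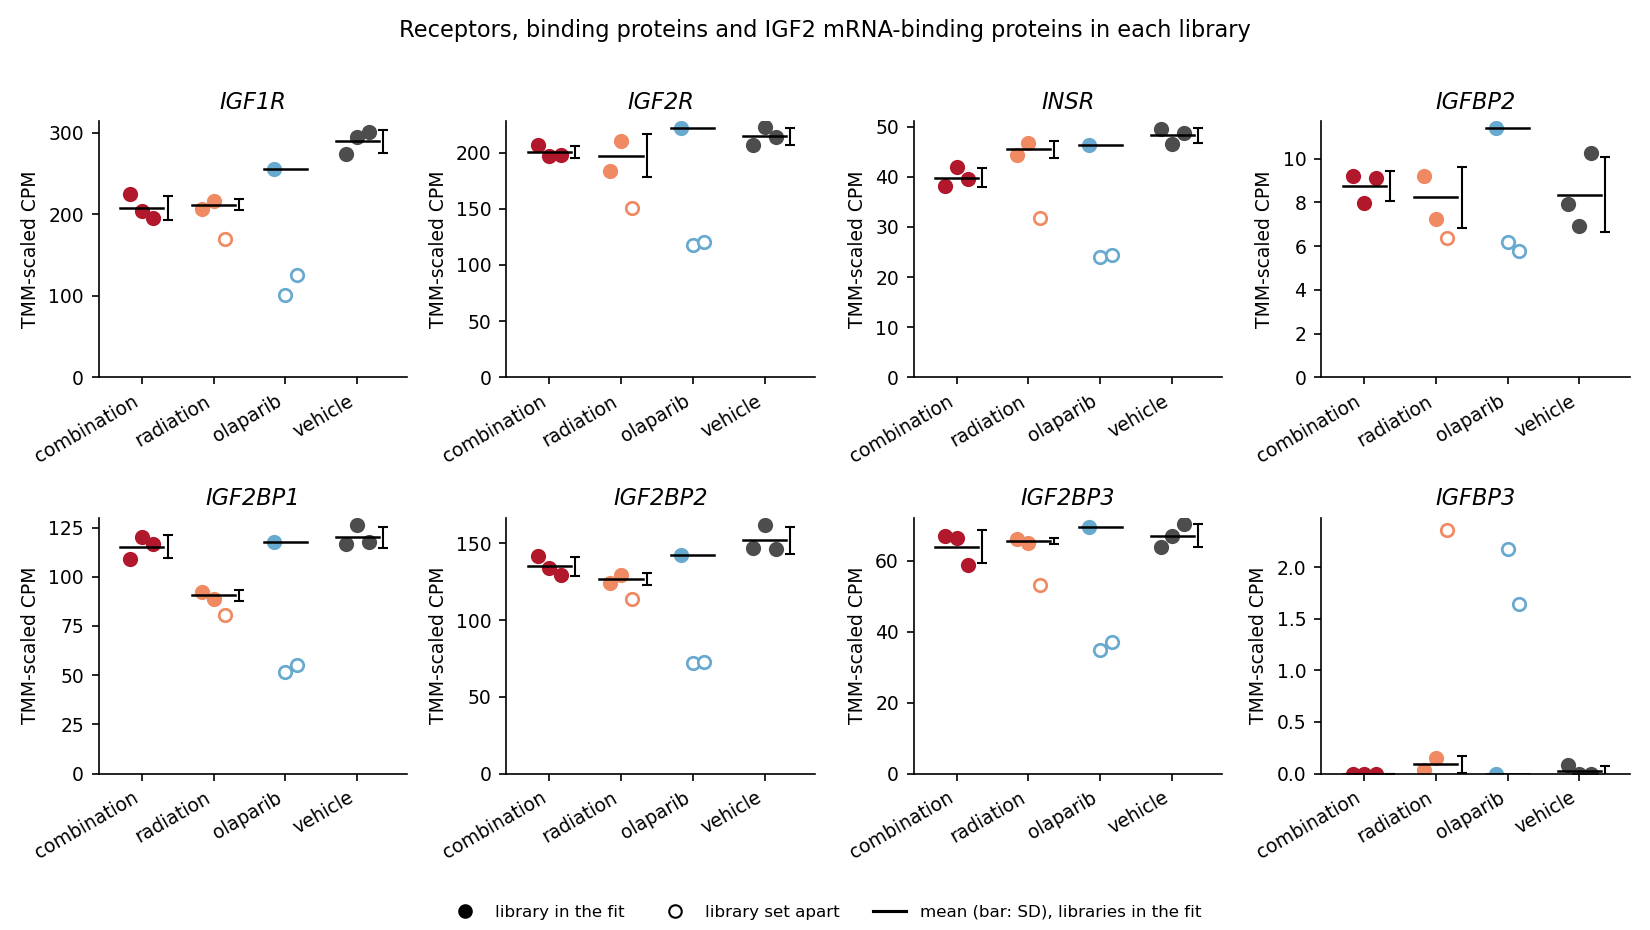
Levels of the 8 other members in TMM-scaled CPM in each library, each panel with its own axis from 0. Filled points are the 9 libraries of the fit, open points the 3 set apart, lines the means and bars the SD. IGF1R was lower in both irradiated groups, IGF2BP1 was lower in radiation at 88.6 to 92.3 CPM, and IGFBP3 was seen almost solely in the open points.

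IGFBP2, a secreted carrier that is abundant in fetal fluids, had 9.2, 7.97 and 9.12 CPM in the combination and 9.23 and 7.26 CPM in radiation. It had 11.4 CPM in the olaparib library and 7.91, 6.9 and 10.3 CPM in vehicle. The ranges of combination and vehicle overlapped (log2 0.067, SE 0.205, edgeR adjusted p = 0.958). IGFBP3, the main carrier in adult serum and a known p53 target, failed the count filter: it had 0 counts in 6 of the 9 libraries, and 1, 4 and 2 counts in radiation 1, radiation 2 and vehicle 1. At 0 counts, levels of up to 0.0788 to 0.146 CPM would go unseen. In the libraries set apart it had 40 counts in radiation 3, 58 in olaparib 2 and 43 in olaparib 3. With all 12 libraries edgeR tested IGFBP3 and called no difference (adjusted p = 0.148 for olaparib versus vehicle and 0.934 for radiation versus vehicle).

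The 3 IGF2 mRNA-binding proteins bind coding RNAs, IGF2 among them, and act on their stability, transport and translation. IGF2BP1 had 109, 120 and 116 CPM in the combination and 92.3 and 88.6 CPM in radiation. Its level was 117 CPM in the olaparib library and 116, 126 and 118 CPM in vehicle. Radiation libraries were the lowest of the 9, and the combination was within or near the vehicle range. It fell by 0.41 in radiation versus vehicle (SE 0.0871, edgeR adjusted p = 0.00291, 0.753-fold) and was higher in combination versus radiation by 0.35 (SE 0.0872, adjusted p = 0.0331, 1.27-fold), while combination versus vehicle gave -0.059 (SE 0.0771, adjusted p = 0.86). The first call was lost without radiation 2 (adjusted p = 0.084). The comparison with radiation lost its call without combination 2, combination 3, radiation 1 or radiation 2 (adjusted p = 0.132 to 0.181) and with limma-voom (0.0691) or the compared groups fitted alone (0.1), and neither passed with all 12 libraries (-0.45 and 0.39, adjusted p = 0.934 and 1). The log2 change after radiation with olaparib exceeded that without it by 0.38 (SE 0.14). This difference rests on 1 olaparib library and was not called, so an altered radiation effect is not shown.

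IGF2BP2 had 142, 134 and 130 CPM in the combination, 124 and 130 CPM in radiation, 142 CPM in olaparib and 147, 162 and 147 CPM in vehicle. Both irradiated groups lay below vehicle, with changes of -0.17 (SE 0.0748, edgeR adjusted p = 0.238) for the combination and -0.26 (SE 0.0839, adjusted p = 0.129) for radiation. IGF2BP3 ranged from 58.7 to 70.3 CPM over the 9 libraries, with overlapping groups and changes between -0.068 and 0.051 in the 4 comparisons. Within libraries, IGF2BP1 counts per 100 IGF2BP2 counts were 76.9, 90 and 89.9 in the combination and 74.5 and 68.4 in radiation, against 82.5 in olaparib and 79.2, 77.8 and 80.2 in vehicle. The radiation libraries were again the lowest, and combination 1 lay just below vehicle while the other two were above it.

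**Figure D3:**
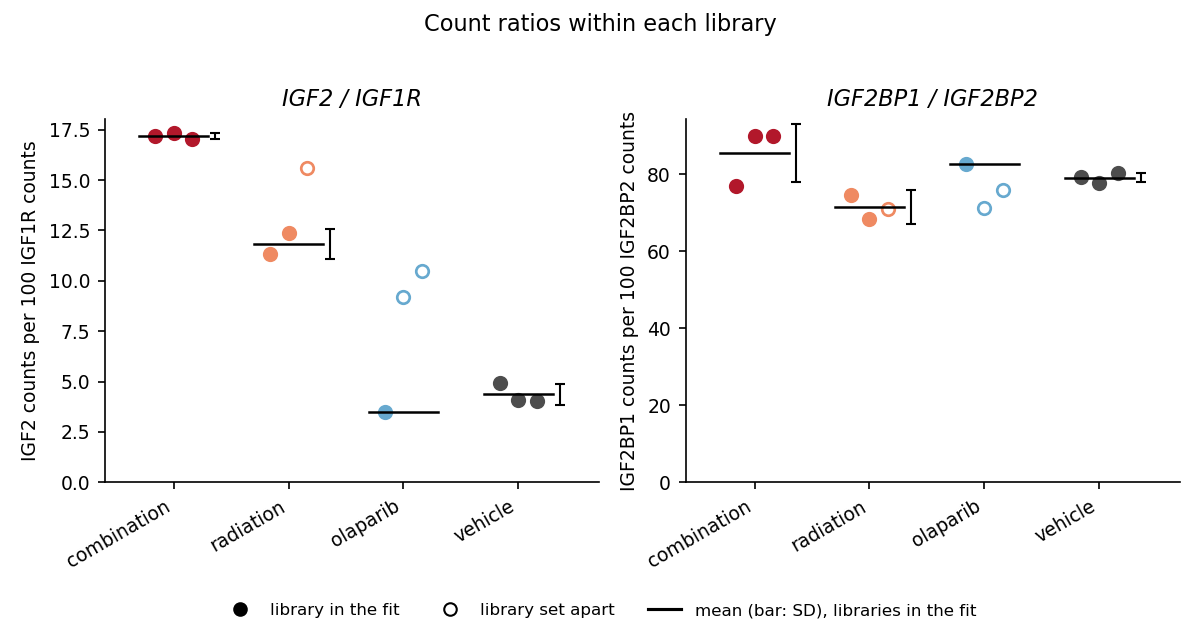
Count ratios within each library, which do not depend on scaling: IGF2 per 100 IGF1R counts (left) and IGF2BP1 per 100 IGF2BP2 counts (right). Filled points are the 9 libraries of the fit, open points the 3 set apart, lines the means and bars the SD. IGF2 was chosen by its level, so the left ratio is a description. It was 17.1 to 17.4 in the combination and 4.03 to 4.95 in vehicle. The right ratio was 68.4 to 74.5 in radiation and 77.8 to 80.2 in vehicle.

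Of the 10 members, 9 passed the count filter and 8 were counted beside IGF2. In combination versus vehicle, 0 of the 8 were higher and 1 lower, where edgeR called 4.8% of 30967 genes, 1.53% higher and 3.26% lower. In radiation versus vehicle 0 were higher and 2 lower, against 1.1% of all genes called, 0.42% higher and 0.678% lower. Between combination and radiation 1 was higher and 0 lower, against 0.568% of all genes in either direction, 0.142% higher and 0.426% lower. In olaparib versus vehicle 0 of 9 members passed, with IGF2 included, where 0.0678% of genes were called, 0.00969% higher and 0.0581% lower. The largest of these changes beside IGF2 were 0.45 for IGFBP2 (SE 0.276) and -0.18 for IGF1R (SE 0.0993), both with an edgeR adjusted p = 1. At an unadjusted p under 0.05, edgeR put 4, 3, 1 and 1 members past the threshold in this order, against 14.4%, 9.68%, 9.54% and 3.34% of all genes. DESeq2 called 2, 3, 1 and 0 members, against 13.6%, 3.76%, 6.49% and 1.16% of the genes to which it gave an adjusted p (12353, 12353, 6352 and 3350). limma-voom called 1, 2, 0 and 0 members, against 3.51%, 0.995%, 0.41% and 0.158% of all genes. edgeR with library size only called 2, 2, 1 and 0, against 8.38%, 2.21%, 0.646% and 0.0517%. Libraries did not overlap between combination and vehicle for 1 member that was higher and 4 that were lower, against 9.15% and 10.4% of all genes. The same counts were 1 and 3 between radiation and vehicle (11.8% and 13.5%), and 1 and 1 between combination and radiation (12.2% and 11.9%). Between olaparib and vehicle they were 1 and 4 (24.4% and 21.1%). The median log2 change of the 8 was -0.083 in combination versus vehicle and -0.10 in radiation versus vehicle, beside medians of 0.016 and -0.028 over all genes tested. With all 12 libraries none of these members was called, and edgeR called 0.00314% of 31858 genes in combination versus vehicle and 0% in the other 3 comparisons. Comparisons that share the vehicle, combination or radiation libraries are not independent of each other.

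**Figure D4:**
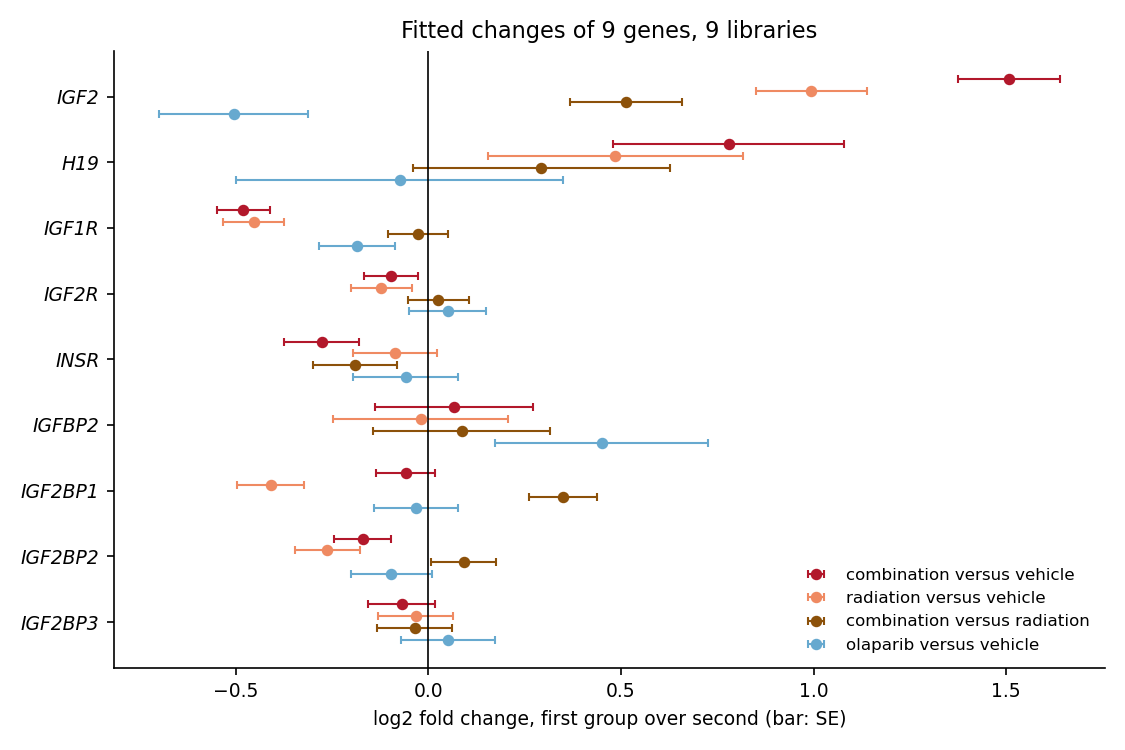
Log2 fold changes with SE of the 9 members that passed the count filter, first group over second, from the fit to 9 libraries. IGF2 is shown as a description for the irradiated comparisons, at 1.51, 0.99 and 0.51. IGF1R lay at -0.48 and -0.45 against vehicle, and IGF2BP1 at -0.41 for radiation over vehicle and 0.35 for combination over radiation.

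Beyond the members, 12 groups with 142 genes around the axis were examined in the same fit. Among proteases that cut IGF-binding proteins and their inhibitors, 1 of 6 tested was called, higher, in 3 comparisons. It was STC2, a secreted glycoprotein that inhibits the protease PAPPA. Of all genes, edgeR called 1.53% higher with both treatments over vehicle and 0.42% with radiation alone. Between the irradiated groups, 0.142% were called higher with olaparib. The 3 calls are of 1 gene, and their comparisons share libraries. STC2 averaged 102 ± 2.68 CPM in the combination (SD, n = 3), 69.1 ± 4.52 in radiation (SD, n = 2) and 53.1 ± 4.44 in vehicle (SD, n = 3). It rose in combination versus vehicle (log2 0.95, SE 0.0853, edgeR adjusted p = 4.49e-14), combination versus radiation (0.57, SE 0.0957, adjusted p = 0.000153) and radiation versus vehicle (0.38, SE 0.0942, adjusted p = 0.0192). The last call was lost without radiation 1, vehicle 1 or vehicle 2 (adjusted p of up to 0.324), with limma-voom and with the compared groups fitted alone. Its relative STC1 averaged 7.45 ± 2.19 CPM in the combination and 4.31 ± 0.748 in vehicle (edgeR adjusted p = 0.0567; DESeq2 and library size only called it higher), and PAPPA itself 4.81 ± 0.962 and 3.3 ± 0.627 CPM in the same groups (adjusted p = 0.469).

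Of the 9 IGF-binding protein genes, 7 were tested and 0 were called in any of the 4 comparisons by edgeR, by DESeq2 or by limma-voom. By edgeR, 0 had an unadjusted p under 0.05. Of all genes, in the order used for the members, edgeR called 4.8%, 1.1%, 0.568% and 0.0678%. The unadjusted shares were 14.4%, 9.68%, 9.54% and 3.34%. At such shares, 0 of 7 does not show that these genes were unchanged. IGFBP4 averaged 4.69 ± 0.324 CPM in the combination and 4.93 ± 0.658 in vehicle, and IGFBPL1 6.81 ± 1.55 and 5.16 ± 1.31. Of the 15 receptor adaptors and brakes, 1 was higher and 1 lower in combination versus vehicle, beside 1.53% and 3.26% of all genes. This split depended on the setting: library size only called 3, all higher, and DESeq2 called 2, both lower. These settings called 8.38% and 13.6% of the genes with an adjusted p, in either direction. The higher one was the adaptor GRB10, which restrains insulin and IGF1 receptors, at 4.25 ± 0.97 CPM in the combination and 1.67 ± 0.168 in vehicle (log2 1.34, SE 0.364, adjusted p = 0.0139). The lower one was SHC1, which links the receptors to RAS (-0.35, SE 0.0968, adjusted p = 0.0154). GRB10 also ran high where background was high: olaparib 3 had 7.66 CPM, olaparib 2 had 5.7 and radiation 3 had 5.2. Among the 9, olaparib 1 had 1.39 CPM, and the highest combination library reached 5.36. The part of background in the GRB10 call was not tested. GRB10 lost its call without combination 3, vehicle 2 or vehicle 3 (adjusted p of up to 0.146) and with DESeq2, and SHC1 with library size only (adjusted p = 0.419), with limma-voom and without combination 1, combination 2, vehicle 2 or vehicle 3 (adjusted p of up to 0.137).

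In the PI3K-AKT-mTOR branch, 0 of 24 genes were called by edgeR in the 4 comparisons, with 6, 5, 2 and 1 at an unadjusted p under 0.05, beside 14.4%, 9.68%, 9.54% and 3.34% of all genes, and DESeq2 called 2 lower in combination versus vehicle. With library size only, edgeR called 4 of the 24 there, all higher, beside 8.38% of all genes. Of the genes with an adjusted p, DESeq2 called 13.6% in that comparison. Among 12 tested FOXO factors and genes they induce, 1 was higher and 2 lower in combination versus vehicle. Over all genes the shares were 1.53% and 3.26%. Library size only called 2 higher and 2 lower, beside 8.38% of all genes in either direction. FOXO3, a transcription factor held inactive by AKT, fell to 226 ± 12.3 CPM in the combination, against 300 ± 22.2 CPM in vehicle (log2 -0.41, SE 0.0698, adjusted p = 1.71e-05). KLF6 fell by 0.48 (SE 0.0783, adjusted p = 8.36e-06). FOXO1 rose by 0.35 (SE 0.102, adjusted p = 0.0255), a call that was lost when any 1 of the combination or vehicle libraries was left out (adjusted p of up to 0.115) and with limma-voom. The group's median was -0.20, beside 0.016 over all genes.

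**Figure D5:**
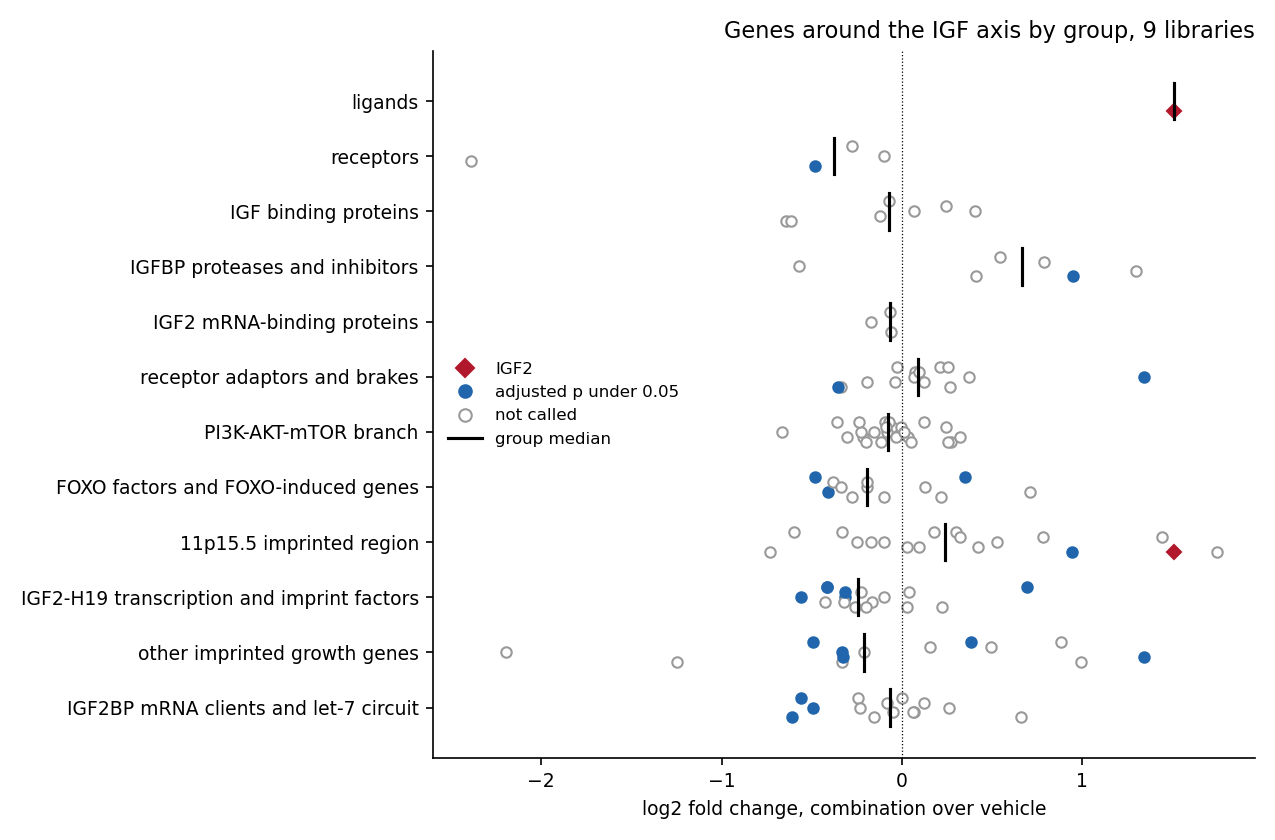
Log2 fold changes in combination over vehicle of the genes around the IGF axis that were tested in the 9 libraries, by group. Blue points passed edgeR's adjusted p of 0.05, open points did not, the red diamond is IGF2, and black lines are group medians. The median was -0.24 for the IGF2-H19 transcription and imprint factors and 0.24 for the 11p15.5 region. The latter includes IGF2, which was chosen for its rise, and is a description.

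In the imprinted 11p15.5 region around IGF2 and H19, 17 genes were tested beside IGF2. CARS1, which encodes a cysteinyl tRNA synthetase, was higher in the combination, at 60.2 ± 1.5 CPM against 31.3 ± 2.82 in vehicle (log2 0.94, SE 0.1, edgeR adjusted p = 3.46e-11), and in radiation versus vehicle (0.68, SE 0.11, adjusted p = 3.1e-05). The other 16 were not called in these comparisons, where 1.53% and 0.42% of all genes were higher and 3.26% and 0.678% lower. Among them, KCNQ1OT1, the noncoding RNA of the neighbouring imprinted cluster, averaged 118 CPM in the combination and 116 CPM in vehicle (log2 0.025, SE 0.133, adjusted p = 0.98), and the growth inhibitor CDKN1C 2.48 and 3.13 CPM.

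Factors that act on IGF2 and H19 transcription or on the imprint were examined next. Of 16 tested, 1 was higher and 5 lower in combination versus vehicle, beside 1.53% and 3.26% of all genes. The group's median was -0.24. PLAG1, a zinc finger activator of the IGF2 promoter, rose to 20 ± 0.737 CPM in the combination, against 12.4 ± 0.746 CPM in vehicle (log2 0.69, SE 0.15, edgeR adjusted p = 0.00104). HMGA2, a chromatin protein that acts upstream of IGF2 and IGF2BP2, fell to 53.2 ± 3.9 CPM in the combination and 51.4 ± 0.162 CPM in radiation (n = 2), against 78.3 ± 0.657 CPM in vehicle (log2 -0.56 and -0.61, adjusted p = 3.12e-06 and 3.1e-05). DNMT1, which maintains DNA methylation, fell by 0.42 (SE 0.0793, adjusted p = 0.00013), as did the cohesin subunit STAG2 by 0.41 (SE 0.0644, adjusted p = 2.27e-06). STAG2 was also lower in combination versus radiation (-0.31, SE 0.0714, edgeR adjusted p = 0.0155). This call was lost without combination 2 or radiation 1, with library size only (0.137), with the replicate block (0.0646) and with the compared groups fitted alone. CTCF, the insulator protein of the imprinting control region, averaged 63.2 CPM in the combination and 75.6 CPM in vehicle. It was not called by edgeR (adjusted p = 0.0628) or limma-voom but was by DESeq2. DESeq2 called 9 of the 16, 1 of them higher, beside 13.6% of the genes to which it gave an adjusted p. Scaled by library size only, where the median over all genes was 0.22, the DNMT1 call was lost (adjusted p = 0.0622) and those of PLAG1, HMGA2 and STAG2 held. That scaling called 4 of the 16, 2 of them higher, beside 8.38% of all genes, with a group median of -0.041.

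Other imprinted growth genes went both ways in combination versus vehicle, with 2 higher and 3 lower of 13. Over all genes the shares were 1.53% and 3.26%. Library size only called 4 higher and 1 lower, beside 8.38% of all genes in either direction. ZDBF2 rose by 0.38 (SE 0.082, edgeR adjusted p = 0.000814). GRB10, named above with its high levels in the libraries set apart, is also imprinted. GNAS, which encodes the stimulatory G protein alpha subunit, fell by 0.49 (SE 0.0587, adjusted p = 1.32e-09) and SGCE, a sarcoglycan, by 0.33 (SE 0.0804, adjusted p = 0.00407), a call lost with library size only (adjusted p = 0.373) and without combination 2 (0.0814). GNAS was also lower in combination versus radiation (-0.26, edgeR adjusted p = 0.0331). This call was lost with library size only (0.225), with the replicate block (0.0692) and with the compared groups fitted alone. It was also lost without combination 2, combination 3, radiation 1, olaparib 1 or vehicle 2. Of 14 mRNAs bound by the IGF2BP proteins or tied to let-7, 3 were lower in combination versus vehicle and 2 in radiation versus vehicle. Over all genes 3.26% and 0.678% were lower. With library size only the calls were 4 higher and 2 lower, and 1 higher and 1 lower, beside 8.38% and 2.21% of all genes. ACTB, a localised client of IGF2BP1 with many pseudogene copies, fell by 0.61 (SE 0.0752, adjusted p = 9.17e-07) and 0.41 (SE 0.0845, adjusted p = 0.00734), and the radiation call was lost without radiation 2 (0.236) and with library size only (0.0827). MYC, which IGF2BP1 stabilises, fell by 0.49 in the combination (SE 0.139, adjusted p = 0.02), a call lost with library size only (adjusted p = 0.223), with limma-voom and without combination 3, vehicle 1 or vehicle 3 (adjusted p of up to 0.128). None of the genes called in these groups passed with all 12 libraries.

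The genes whose levels tracked IGF2 most closely over the 9 libraries were found by Pearson correlation of log2(CPM + 0.1) among 11033 genes of at least 5 CPM. The highest were EXOSC8, a subunit of the RNA exosome (r = 0.983), the phosphatase PTP4A1 (0.97), the microtubule protein MAP1B (0.968), the ribosome export GTPase LSG1 (0.958) and the glycyl tRNA synthetase GARS1 (0.957). EXOSC8 averaged 41.5 CPM in the combination, 37 in radiation, 29.7 in olaparib and 30.1 in vehicle. The lowest were DNMT1 (-0.989), PDE5A, which degrades cyclic GMP (-0.987), the connexin GJA1 (-0.985), VMP1, which acts in autophagy (-0.983), and EID1, a regulator of differentiation (-0.983). Among the members of at least 5 CPM, r was lowest for IGF1R (-0.837) and INSR (-0.806). Counted from the highest r, these ranked 10350 and 10113 of 11033, so many genes had a lower r. The libraries share their groups and scaling, so these values describe the pattern across treatments.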

How the data were processed

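RNA was sequenced from SBC5 cells as stranded total RNA libraries, per the labels' protocols. The authors deposited an estimated count (expected count) per Ensembl gene and library, made with kallisto 0.46.1, per the submitters' processing notes, which also name DESeq2. The transcriptome and its build: not given in the sources used here. The table had 60649 rows; 44 Y-linked pseudoautosomal rows were summed with the X-linked ones, the estimates were rounded, and 60463 of 60605 genes matched a symbol. The files do not show how kallisto split reads between overlapping genes.

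The main fit used R 4.3.3 and edgeR 4.0.16 on 9 libraries of all 4 groups, with the default count filter (30967 genes), TMM factors, a mean for each group and robust quasi-likelihood tests; p-values were adjusted by Benjamini-Hochberg across every tested gene (threshold 0.05). Each SE is the log2 change over the square root of F. No label states that libraries of 1 group are separate cultures, so p-values measure the spread between libraries, which may be technical. Library 3 of radiation and libraries 2 and 3 of olaparib, with high background, were set apart by the rule that chose the genes, and were placed on the CPM scale through factors of a 12-library fit. The script was tested on simulated data. Members, lists and libraries were chosen with earlier results of these data known. Named genes are all members, called genes of the lists (at most 4 a list and comparison), and the 5 genes with the highest and 5 with the lowest correlation with IGF2; uncalled list genes were chosen after their values were seen. Replicate numbers were not used as pairs in the main fit. Alternatives were DESeq2's size factors, library size only, no and stricter count filters, DESeq2 1.42.0, limma-voom (limma 3.58.1), all 12 libraries, the compared groups alone, the replicate block and each library left out. Limits for 0 counts use 3 counts per library and cover counting error only.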

Additional observations from a re-analysis of the deposited data

Results flagged for a closer look

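IGFBP3 carried 58 and 43 counts in olaparib 2 and olaparib 3 and 40 counts in radiation 3, libraries that entered no comparison of the main fit, against at most 2 counts in any vehicle library. These are the libraries with high counts on olfactory receptor and other silent genes. The part of that background in the IGFBP3 counts was not tested.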

How the results depend on the processing

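The counts of called genes moved most with the libraries used. With all 12 libraries edgeR called 1, 0, 0 and 0 genes in combination versus vehicle, radiation versus vehicle, combination versus radiation and olaparib versus vehicle, against 1485, 340, 176 and 21 in the 9, and 0 members in each. With library size only, which shifted the median over all genes to 0.22, 0.078, 0.12 and 0.047, it called 2594 and 685 in the first 2, and 2 members in combination versus vehicle. DESeq2 called 412 in combination versus radiation, 39 in olaparib versus vehicle and 2 members in combination versus vehicle, and limma-voom 49 in olaparib versus vehicle and 0 members in combination versus radiation. No count filter gave 278 in combination versus radiation and 39 in olaparib versus vehicle. The compared groups alone gave 190 in radiation versus vehicle, 64 and 0 members in combination versus radiation, and 37 in olaparib versus vehicle. Leaving out 1 library gave 1030 to 1716, 200 to 360, 38 to 447 and 18 to 33 genes, and 1, 1 to 2, 0 to 1 and 0 members. The lowest and highest counts in combination versus radiation came without radiation 1 and without radiation 2. With the replicate block 43 genes were called in olaparib versus vehicle, and IGF2BP1 lost its call in combination versus radiation (adjusted p = 0.0598), leaving 0 members. Libraries with the same number correlated at -0.159 to 0.0922 in their deviations from group means (7 pairs). Those with different numbers correlated at -0.161 to 0.238 (14 pairs). Deviations from means of 2 or 3 libraries depend on each other, so these values cannot decide whether the numbers mark pairs.

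IGF2 kept its direction in all settings run, in the 4 comparisons; it moved to 1.71 with library size only in combination versus vehicle, and to -0.26 with all 12 libraries in olaparib versus vehicle. Signs turned only for changes that were not called. With library size only these were IGF2R (0.10), IGF2BP1 (0.14), IGF2BP2 (0.029) and IGF2BP3 (0.13) in combination versus vehicle, INSR (0.025), IGFBP2 (0.092) and IGF2BP3 (0.078) in radiation versus vehicle, IGF1R (0.063) and IGF2BP3 (0.055) in combination versus radiation, and INSR (0.013) and IGF2BP1 (0.039) in olaparib versus vehicle. With all 12 libraries they were IGF1R (0.065) and IGF2BP3 (0.050) in combination versus radiation, and IGF2R (-0.47), IGFBP2 (-0.086) and IGF2BP3 (-0.49) in olaparib versus vehicle. With the replicate block IGFBP2 turned to 0.083 between radiation and vehicle and to -0.00053 between combination and radiation. Leaving out 1 library gave ranges that cross 0 for IGFBP2 (-0.056 to 0.24 in combination versus vehicle, -0.20 to 0.16 in radiation versus vehicle, -0.10 to 0.27 in combination versus radiation), IGF2BP3 (-0.066 to 0.0017 between radiation and vehicle, -0.081 to 0.0071 between combination and radiation), IGF2R (-0.070 to 0.10 in combination versus radiation), and H19 (-0.14 to 0.0065) and IGF2BP1 (-0.053 to 0.0040) in olaparib versus vehicle. Apart from settings whose construction drops samples, the cause was not tested. The single olaparib library limits that comparison to large differences.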
